A study of Homo sapiens with 4 samples.

Results

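In all, 10 chemokine genes were followed in RNA-seq libraries of OVCAR5 cells transduced with a control hairpin or with a hairpin against FOXK2: CXCL1, CXCL2, CXCL3, CXCL5, CXCL6, CXCL8, CXCL10, CXCL11, CXCL16 and CCL20. They are 10 of the 56655 gene symbols in each count table, taken by symbol. They were chosen by name with their counts in this same shFOXK2 versus shCtrl contrast already known, so that their differences between the groups are given as a description, with no test. OVCAR5 is an established ovarian cancer line, here labelled as high grade serous with ascites as its source, and was grown in RPMI with 10% FBS. The shCtrl group (2 libraries) carried a nontargeting lentiviral hairpin in the pLKO.1 puromycin vector. The shFOXK2 group (2 libraries) carried a hairpin against FOXK2, the gene of a forkhead transcription factor, delivered by the same means. Cells of both groups were stably transduced and selected with puromycin. The shFOXK2 cells carried 1 of the study's hairpins, and the libraries come from 1 cell line. The paper counts its replicates as biological, with n = 2 for each of these groups. The labels do not say that the replicates were separate cultures, and p-values measure only the spread between these libraries.

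Chemokines are small secreted proteins that guide leukocytes by binding G protein-coupled receptors on them. CXCL1, CXCL2, CXCL3, CXCL5, CXCL6 and CXCL8 are the ELR chemokines of the CXC family, which draw neutrophils through CXCR2 and, for CXCL6 and CXCL8, also through CXCR1, and which epithelial cells switch on in response to NF-kappaB and AP-1 signals. CXCL10 and CXCL11 are interferon-induced ligands of CXCR3 on T cells. CXCL16 is made as a membrane-bound protein that binds CXCR6 and is shed by the protease ADAM10, and CCL20 is an epithelial ligand of CCR6. In ovarian cancer CXCL8 and the CXCL1 group are best known as tumour cell products tied to angiogenesis and to NF-kappaB activity.

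The libraries held between 14284005 and 21950873 counts, and 3 counts corresponded to between 0.134 and 0.211 CPM (counts scaled to a common library size, with TMM factors that adjust for composition). FOXK2 itself had 1796 and 1499 counts in shCtrl against 1086 and 1084 in shFOXK2, or 86.9 and 67.9 CPM on average, with 80.5 CPM in the lower shCtrl and 76.3 CPM in the higher shFOXK2 library. Its log2 fold change was −0.36 (SE 0.25, edgeR adjusted p = 0.257), so a lower FOXK2 transcript level was not detectable as a difference beyond the spread between replicates, and in 12 other settings it was called in 0, with adjusted p from 0.166 to 0.917. The paper reports less FOXK2 mRNA by qRT-PCR and less FOXK2 protein by western blot in its shFOXK2 OVCAR5 cells. Log2 CPM correlated at 0.983 between the shCtrl libraries, at 0.979 between the shFOXK2 libraries and at 0.847 to 0.870 between groups. Of 16417 tested genes, 48.4% were called at an adjusted p under 0.05, 22.7% lower and 25.7% higher in shFOXK2, and in 36.2% the higher shFOXK2 library lay below the lower shCtrl library. The keratins KRT7, KRT8, KRT18 and KRT19, which mark epithelial cells, were abundant in every library. Of the ovarian carcinoma markers, PAX8 had 351, 335, 156 and 162 counts over the shCtrl and then the shFOXK2 libraries. MSLN had 75, 52, 112 and 116 counts and MUC16 had 397, 145, 0 and 8. WT1, a marker of serous ovarian carcinoma, had at most 2 counts in a library.

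Of the 10 genes, 8 lie on chromosome 4 (hg38). CXCL8 (ENSG00000169429.12, 73740519 to 73743716), CXCL6 (ENSG00000124875.10, 73836640 to 73849064) and CXCL1 (ENSG00000163739.5, 73869393 to 73871308) are on the plus strand. CXCL5 (ENSG00000163735.7, 73995642 to 73998677), CXCL3 (ENSG00000163734.4, 74036589 to 74038807) and CXCL2 (ENSG00000081041.9, 74097040 to 74099196) follow on the minus strand, and these 6 genes form one cluster. CXCL10 (ENSG00000169245.6, 76021118 to 76023497) and CXCL11 (ENSG00000169248.13, 76033682 to 76041415) sit farther along on the minus strand. CXCL16 (ENSG00000161921.17) spans chromosome 17 from 4733533 to 4739928 on the minus strand, and CCL20 (ENSG00000115009.13) spans chromosome 2 from 227805739 to 227817564 on the plus strand.

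RefSeq promoters of GRCh38.p14 were at hand for 9 of the 10 genes, with CXCL16 not among them. The 110 bases upstream of the start are printed for the 6 ELR genes and CCL20, because the ELR genes share a kappaB match there, and for CXCL11 as a gene that was close to undetected in every library. Capitals mark letters that fit GGANNTNCC on either strand, an NF-kappaB type of motif, and TATAAA.
CXCL1 (chr4:73869283-73869392, plus strand): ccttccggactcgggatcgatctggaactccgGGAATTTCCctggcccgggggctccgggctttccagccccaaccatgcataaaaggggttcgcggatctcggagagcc
CXCL2 (chr4:74099196-74099305, minus strand): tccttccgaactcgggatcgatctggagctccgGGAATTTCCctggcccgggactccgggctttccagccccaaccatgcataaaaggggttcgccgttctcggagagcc
CXCL3 (chr4:74038690-74038799, minus strand): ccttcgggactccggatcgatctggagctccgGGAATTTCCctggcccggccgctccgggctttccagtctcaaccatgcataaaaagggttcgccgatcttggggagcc
CXCL5 (chr4:73998678-73998787, minus strand): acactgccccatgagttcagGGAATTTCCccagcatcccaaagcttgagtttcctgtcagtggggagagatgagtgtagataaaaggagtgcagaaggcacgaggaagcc
CXCL6 (chr4:73836568-73836677, plus strand): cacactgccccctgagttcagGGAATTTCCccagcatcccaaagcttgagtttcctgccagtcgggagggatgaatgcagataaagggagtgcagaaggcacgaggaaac
CXCL8 (chr4:73740459-73740568, plus strand): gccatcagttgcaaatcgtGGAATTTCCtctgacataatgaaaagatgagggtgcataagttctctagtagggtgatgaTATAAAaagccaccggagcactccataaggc
CXCL11 (chr4:76036071-76036180, minus strand): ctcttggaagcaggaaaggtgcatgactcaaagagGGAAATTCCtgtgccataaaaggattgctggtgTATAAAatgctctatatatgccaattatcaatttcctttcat
CCL20 (chr2:227813732-227813841, plus strand): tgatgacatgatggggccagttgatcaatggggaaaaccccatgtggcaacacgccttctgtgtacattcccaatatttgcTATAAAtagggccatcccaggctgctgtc

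The same 9 letters, GGAATTTCC, stood upstream of each of the 6 ELR genes, first base at −78 in CXCL1, −77 in CXCL2, −78 in CXCL3, −90 in CXCL5, −89 in CXCL6 and −91 in CXCL8, counted back from −1 at the base before the start. Its reverse complement was at −176 in CXCL10 and −75 in CXCL11. Searched on both strands over 250 bases before and 50 after the start, GGANNTNCC was in 8 of the 9 promoters, all but CCL20, against 16.0% of 27305 RefSeq promoters. The exact letters GGAATTTCC, a search added once the shared match had been seen, were in the same 8 and in 0.472% of all promoters. The FOXK2 motif TGTTTAC was in 0 of the 9 against 3.41% of all promoters, which says only that these letters were not in these windows. AP-1 letters (TGANTCA) were found in CXCL8 and CXCL11, against 7.76% of promoters, and C/EBP letters (TTGCNNAA) in CXCL2, against 10.6%. Letters of an interferon element (GAAANNGAA) were in CXCL2, CXCL3 and CXCL10, against 8.29%, and TATAAA was in CXCL8, CXCL11 and CCL20, against 12.0%. None of these matches overlapped a match of another motif. A match is a description of sequence and not a measured binding site. For every motif, absence means only that the searched letters were not in the window, and a site spelled otherwise would be missed. Related letters outside these patterns were not searched, such as ggggaaaacccc in CCL20, ttgcaaat in CXCL8 and gcataaaa in CXCL1, CXCL2 and CXCL3. The lack of a GGANNTNCC match in CCL20 therefore does not show that it has no kappaB site.

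Over the 250 bases before the start, CXCL5 and CXCL6 were 85.3% identical, CXCL1 and CXCL3 81.4%, CXCL2 and CXCL3 73.3% and CXCL1 and CXCL2 70.4%. Identity between these 2 families was 48.9 to 51.5%, and CXCL8 was 42.0 to 45.4% identical to the other 5 ELR genes.

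CXCL1, CXCL2 and CXCL3, the closely related growth-regulated oncogene chemokines, were abundant in shCtrl cells and low but still counted in shFOXK2 cells. CXCL1 had 3322 and 2543 counts in shCtrl against 19 and 8 in shFOXK2, or 153.7 and 0.888 CPM on average. Its mean CPM in shFOXK2 was 0.578% of that in control. The ratio of pooled counts, scaled by library size, was 184 in favour of shCtrl (95% counting interval 126 to 279). CXCL2 had 1504 and 947 counts in shCtrl against 27 and 20 in shFOXK2, a ratio of 44.1 (33.0 to 60.2). It kept 2.37% of its control level. CXCL3 had 727 and 516 counts against 12 and 7, a ratio of 55.3 (35.3 to 92.2), an interval that overlaps that of CXCL2 and lies below that of CXCL1. In none of the 3 genes did the groups overlap. Intervals of ratios are exact and cover counting error only, since reads amplified by PCR are not independent molecules.

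CXCL5 and CXCL6, whose promoters are the most alike, went from well counted to almost none. CXCL6 had 1482 and 1056 counts in shCtrl against 2 and 0 in shFOXK2, a ratio of 1073 (297 to 8862). CXCL5 had 541 and 364 counts in shCtrl against 0 and 1 in shFOXK2, a ratio of 765 (137 to 30248). For both genes the shFOXK2 level was at or below 3 counts per library, and the intervals are correspondingly wide. These intervals overlap each other, and that of CXCL5 also overlaps that of CXCL1.

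CXCL8, which encodes interleukin 8, had 2984 and 1263 counts in shCtrl against 20 and 4 in shFOXK2. Its mean level was 106 CPM in shCtrl and 0.813 CPM in shFOXK2, a ratio of 150 (100 to 234). The groups did not overlap, but CXCL8 varied between replicates, by 1.70 times in CPM within shCtrl and by 6.40 times within shFOXK2.

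The genes outside the ELR group were lower in shCtrl to begin with. CCL20 had 150 and 91 counts in shCtrl against 3 and 1 in shFOXK2, a ratio of 50.9 (19.6 to 188), with no overlap. CXCL16 had 396 and 327 counts in shCtrl against 46 and 31 in shFOXK2, a ratio of 7.94 (6.27 to 10.2). It kept 13.0% of its control level, the largest part among the 8 genes with over 100 pooled shCtrl counts, and its interval did not reach that of any of the other 7. The CXCR3 ligands were near the limit of counting in both groups. CXCL10 had 11 and 4 counts in shCtrl against 0 and 1 in shFOXK2, a ratio of 12.7 (1.95 to 534), and the groups did not overlap. CXCL11 had 2 and 1 counts in shCtrl against 1 and 1 in shFOXK2, at or under 3 counts everywhere, and no fold is given.

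**Figure D1:**
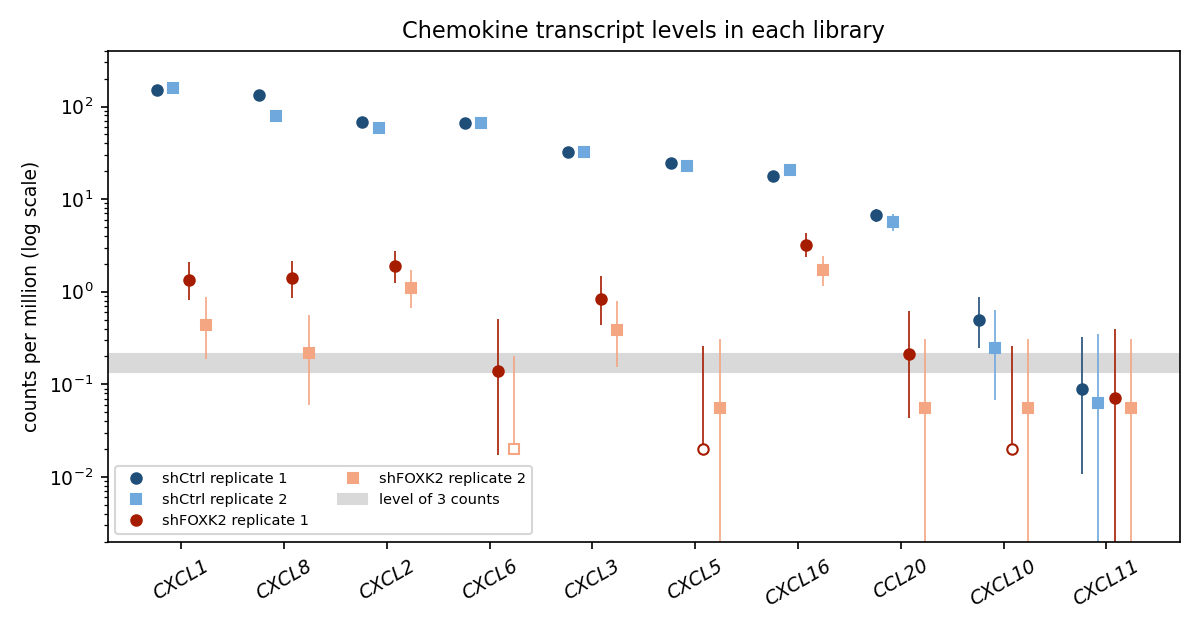
Transcript level of each of the 10 chemokine genes in each library, in CPM on a log axis, with exact 95% counting intervals. Open symbols drawn at the bottom are libraries with 0 counts and the grey band is the level of 3 counts. In 9 genes the shFOXK2 points lie below those of shCtrl, and in CXCL11 the groups overlap.

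The groups did not overlap, with shFOXK2 the lower, in 9 of the 10 genes, beside 36.2% of tested genes, and the genes were selected on this very difference, so nothing is read from that count. Of the 10, 8 passed the filter on low counts and entered the fit, and these 8 were called lower, beside 22.7% of tested genes. CXCL10 and CXCL11 did not pass. Among the 8, only CXCL2 and CXCL16 reached the filter's level of 0.584 CPM in both shFOXK2 libraries, so the others passed through the shCtrl libraries alone and had to differ. In order of size, the fitted log2 fold changes were −9.90 (SE 0.54) for CXCL6, −9.28 (SE 0.59) for CXCL5, −7.48 (SE 0.42) for CXCL1 and −7.10 (SE 0.56) for CXCL8. They were −5.75 (SE 0.41) for CXCL3, −5.56 (SE 0.56) for CCL20, −5.42 (SE 0.35) for CXCL2 and −2.96 (SE 0.37) for CXCL16. Counted from the lowest of the 16417 tested genes, CXCL6 ranked 2, CXCL5 6, CXCL1 17, CXCL8 23 and CXCL16 332. In a fit without the filter, where values of genes near 0 depend on the prior count, CXCL10 was at −3.46 and CXCL11 at −0.40, and the median of the 10 was −5.76, against 0.04 for all tested genes in the filtered fit. In bulk RNA, fewer cells making a transcript and less transcript per cell cannot be told apart.

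**Figure D2:**
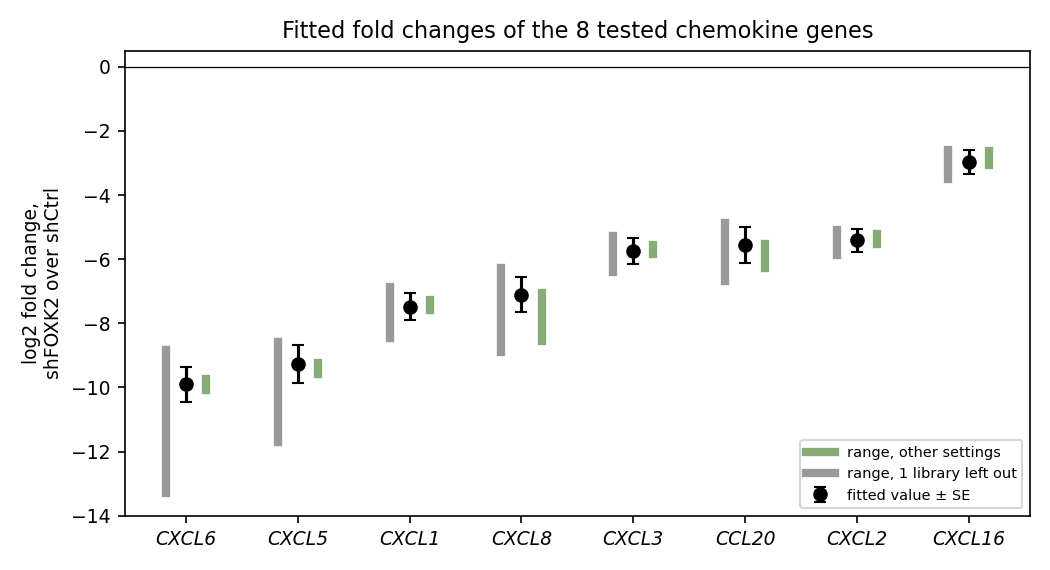
Fitted log2 fold change (shFOXK2 over shCtrl) with its standard error for the 8 chemokine genes that passed the filter, with the range over 8 other settings in green and over fits that leave out 1 library in grey. The genes lie between −9.90 and −2.96, and the longest grey bar, down to −13.29, is that of CXCL6, which had 2 counts in all in the shFOXK2 libraries.

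The fits with 1 library left out show which library carried each value. Without shFOXK2 replicate 1, CXCL6 moved to −13.29, a fit against a group at 0 counts, CXCL8 to −8.90, CXCL1 to −8.45 and CCL20 to −6.68. Without shFOXK2 replicate 2, CXCL5 moved to −11.69, likewise against 0 counts, CXCL6 to −8.84, CXCL8 to −6.26 and CCL20 to −4.86. Leaving out a shCtrl library moved CXCL8 to −6.71 or −7.52 and the other 7 genes by less. All 8 stayed negative in these fits, a direction that the choice of genes fixes. With an offset that removes the trend of fold change with transcript adenine content, CXCL8 moved to −8.50, below CXCL1 at −7.26, and CCL20 to −6.28, so the order of CXCL1 and CXCL8 turned.

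Expressed per kb of transcript, levels can be set beside each other within a group. In shCtrl, CXCL1 led with 130.9 ± 5.73 CPM per kb (SD, n = 2), followed by CXCL8 with 64.7 ± 23.7 and CXCL2 with 56.7 ± 5.34. The ranges of CXCL8 (47.9 to 81.5) and CXCL2 (52.9 to 60.5) overlapped, so their order is not resolved. CXCL6 stood at 43.0 ± 0.298 CPM per kb, CXCL3 at 30.1 ± 0.292 and CXCL5 at 9.63 ± 0.457. CXCL16, at 8.20 ± 0.797, and CCL20, at 7.43 ± 0.894, overlapped, and CXCL10 and CXCL11 followed at 0.316 and 0.0514. In shFOXK2 the highest levels were those of CXCL2 (1.34 ± 0.507 CPM per kb) and CXCL16 (1.06 ± 0.466), followed by CXCL1 at 0.756 ± 0.540, and the ranges of these genes overlapped, so their order is not resolved.

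The make-up of what was left therefore differed from that of control cells. CXCL1 made up 37.4% of the summed CPM per kb of the 10 genes in shCtrl and 15.9% in shFOXK2, CXCL8 18.2% and 9.26%, and CXCL6 12.3% and 0.730%. CXCL2 made up 16.1% in shCtrl and 31.5% in shFOXK2, and CXCL16 made up 2.35% and 24.4%. CXCL3 was at 8.60% and 12.8%, CXCL5 at 2.75% and 0.409%, and CCL20 at 2.11% and 3.21%. The 6 ELR genes together made up 95.6% and 95.3% of the sum in shCtrl, against 73.0% and 68.0% in shFOXK2.

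**Figure D3:**
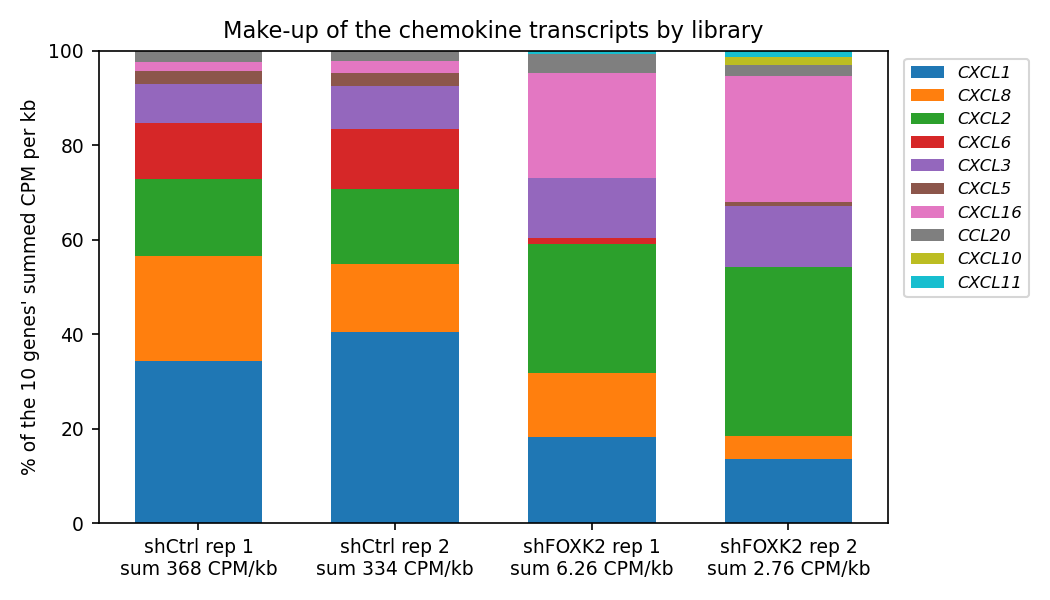
Share of each gene in the summed CPM per kb of the 10 chemokine genes, as stacked bars for each library, with the library's sum written under its bar. CXCL1, CXCL8, CXCL2 and CXCL6 fill most of the shCtrl bars. CXCL2 and CXCL16 are the largest parts of the shFOXK2 bars, whose sums are 6.26 and 2.76 against 368 and 334 CPM per kb.

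Summed over the 6 ELR genes, the libraries held 10560 and 6689 counts in shCtrl against 80 and 40 in shFOXK2. As a share of all counts this was 0.0481% (95% Wilson interval 0.0472 to 0.0490) and 0.0398% (0.0389 to 0.0408) in shCtrl. It was 0.000560% (0.000450 to 0.000697) and 0.000226% (0.000166 to 0.000307) in shFOXK2. Within each group the intervals of the 2 libraries did not overlap, and these intervals too cover counting error of independent reads only.

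The remaining transcripts were unevenly spread between the shFOXK2 replicates. In CPM, replicate 1 exceeded replicate 2 by 6.40 times for CXCL8, 3.84 times for CCL20, 3.04 times for CXCL1, 2.19 times for CXCL3, 1.90 times for CXCL16 and 1.73 times for CXCL2. These are the 6 genes with at least 4 pooled counts in shFOXK2, and the difference had the same direction in 6 of 6. CCL20 rests on 3 and 1 counts. Below that cut, CXCL5 and CXCL10 each had 0 counts in replicate 1 and 1 in replicate 2, and CXCL6 had 2 and 0. No share of all tested genes is set beside the 6 of 6, so nothing is read from it. The 10 genes summed to 9.14 and 4.07 CPM in the shFOXK2 replicates, against 498 and 443 CPM in the shCtrl replicates. TNFAIP3, an NF-kappaB induced feedback inhibitor, also had more transcript in replicate 1 (15.6 CPM) than in replicate 2 (3.79 CPM), whereas CCL2 (0.633 and 0.879 CPM) and CX3CL1 (2.53 and 4.45 CPM) had less. With 2 libraries a group, these differences between replicates have no test.

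The 3′ UTRs of these transcripts carry AU-rich letters to an unequal extent. ATTTA, the core of elements that mark short-lived cytokine mRNAs, occurred 6 times in the canonical 3′ UTR of CXCL1, 10 times in CXCL2, 7 in CXCL3, 11 in CXCL5, 6 in CXCL6, 9 in CXCL8 and 3 in CCL20. It occurred 1 time each in CXCL10, CXCL11 and CXCL16. Per kb of 3′ UTR the ELR genes ranged from 5.36 in CXCL6 to 14.0 in CXCL2, and CCL20 had 6.34, against a median of 1.66 over 12718 tested protein-coding genes. These values lay between percentiles 92.9 and 99.6, and CXCL10, CXCL11 and CXCL16 lay at percentiles 42.1, 36.2 and 38.5. Among the ELR genes CXCL2 had the highest density and kept 2.37% of its control level, and CXCL6 had the lowest density and kept 0.106%. A relation between density and change was not tested.

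Reads of some members could not be assigned with certainty. Of the 50-base windows in the CXCL2 transcript, 8.63% also occurred exactly in CXCL1 or CXCL3, and the share was 4.29% for CXCL3 and 4.27% for CXCL1. For CXCL16 4.26% and for CXCL5 1.17% of windows occurred elsewhere in the genome, outside the members. Strand use in the authors' counting is not given in the sources used here. On the opposite strand, 17.3% of the CXCL5 exon bases overlap a long noncoding RNA gene (ENSG00000287037), and of those of CXCL16 3.44% overlap ZMYND15 and 2.72% MED11. On the same strand 4.61% of the CXCL6 exon bases overlap the pseudogene PPBPP1.

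Chemokine ligands beyond these 10 were low in most cases. Of 38 other ligands, 36 were in the tables, 11 had 0 counts in every library and 7 passed the filter. Of the 7, 5 were lower, 0 higher and 2 not called by edgeR. The median log2 fold change of −3.10, against 0.04 over all tested genes, is the value of CCL28. The shares over all tested genes were 22.7% lower and 25.7% higher. CCL2, which attracts monocytes through CCR2, had 3115 and 2382 counts in shCtrl against 9 and 16 in shFOXK2 and fell by 7.54 on the log2 scale (SE 0.35, adjusted p = 6.8e-08). The fitted value lay close to that of CXCL1. CX3CL1, a membrane-bound ligand that is shed like CXCL16, had 1674 and 1260 counts against 36 and 81 (log2 fold change −4.44, SE 0.33, adjusted p = 1.13e-06). CCL7 (36 and 33 counts against 1 and 0) and CCL28 (70 and 61 against 4 and 9), a mucosal epithelial chemokine, are among the 5. Both passed the filter through the shCtrl libraries alone and had to differ. No p is given for them, and nothing is read from the count of 5 or from the median. CXCL14 had 162 and 117 counts against 23 and 60 (log2 fold change −1.55, adjusted p = 0.00493). Not called were CCL5, with 124 and 106 counts in shCtrl against 11 and 90 in shFOXK2 (log2 fold change −1.05, adjusted p = 0.131), and CCL1, at 1.10 (adjusted p = 0.0601). With single libraries left out, CCL5 ran from −2.99 (without shFOXK2 replicate 2) to −0.32 and CCL1 from 0.66 to 1.64. CXCL9, the remaining CXCR3 ligand, had 0 counts throughout.

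The receptors of the 10 chemokines were close to undetected in these cells. CXCR2 had 1, 0, 0 and 3 counts over the shCtrl and then the shFOXK2 libraries, CXCR1 had 0, 0, 0 and 1, and CCR6 had 0 in each. CXCR3 had 1, 0, 0 and 0 and CXCR6 had 2, 3, 0 and 2. Only 2 of 23 receptor genes passed the filter, and both were lower in shFOXK2, beside 22.7% of all tested genes. CCRL2, an atypical receptor that does not signal, had 267 and 254 counts in shCtrl against 41 and 34 in shFOXK2 (log2 fold change −2.56, adjusted p = 0.000102). CCR10, the receptor of CCL28, had 73 and 55 counts against 21 and 30 (log2 fold change −1.09, adjusted p = 0.0277), a call that was lost in the DESeq2 Wald test, with the adenine trend removed, and without either shCtrl library.

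**Figure D4:**
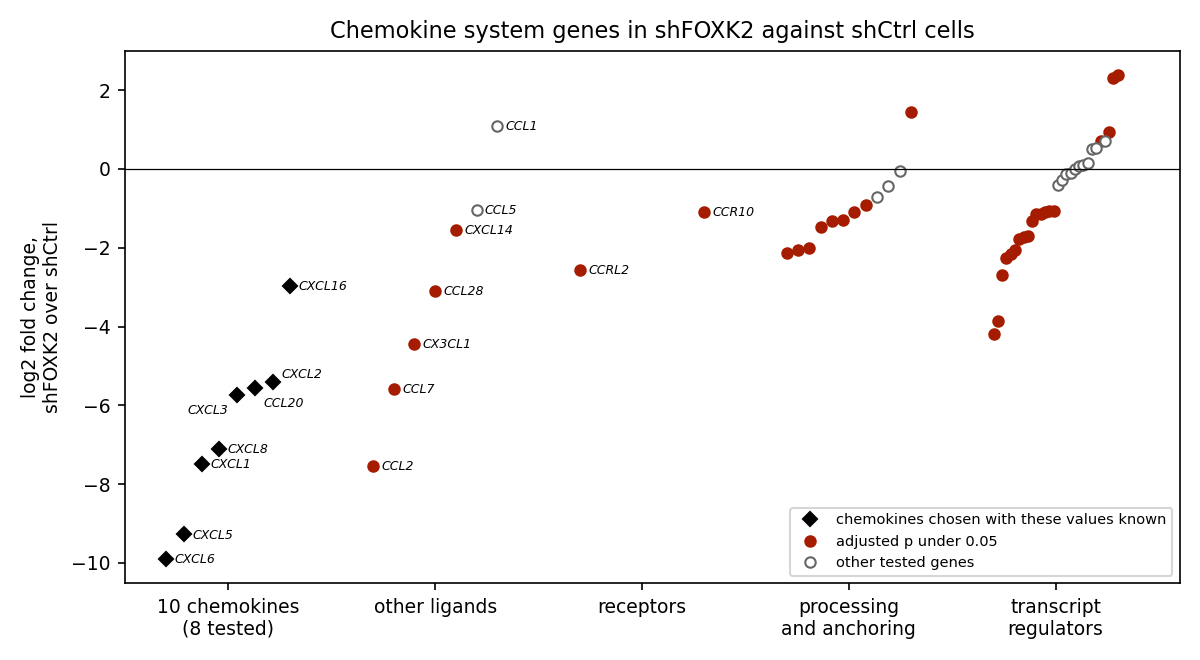
Log2 fold change (shFOXK2 over shCtrl) of tested chemokine ligands, receptors, processing and anchoring genes and transcript regulators, 1 point a gene. Diamonds are the chemokines chosen with these values known, filled circles are genes with an adjusted p under 0.05, and open circles are other tested genes. The ligands reach the lowest values, and the regulators run from −4.19 to 2.39.

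Genes that process chemokines or hold them at the cell surface were measured as a further list. Of 17 listed, 12 were tested, with 8 lower, 1 higher and 3 not called, and a median log2 fold change of −1.20. Among all tested genes, 22.7% were lower and 25.7% higher. SDC4, a heparan sulfate proteoglycan that binds chemokines, fell by 2.14 (SE 0.25, adjusted p = 2.74e-05), from 883 and 946 CPM to 236 and 179 CPM. ADAM17, a sheddase of CX3CL1, fell by 2.07 (adjusted p = 6.97e-05), MMP14 by 2.00 (adjusted p = 3.36e-05) and EXT2, which builds heparan sulfate chains, by 1.47 (adjusted p = 0.000227). ADAM10, the constitutive sheddase of CXCL16, was at −0.70 and not called (adjusted p = 0.0967). It had 411 and 182 CPM in shCtrl against 148 and 216 CPM in shFOXK2, so the groups overlapped. With single libraries left out, its value ran from −1.25 (without shCtrl replicate 2) to −0.04. With the trend in transcript adenine content removed it was called, at −1.13. DPP4, a protease that trims CXCL10 and CXCL11, was the exception and rose by 1.44 (adjusted p = 0.00549), from 22.0 and 18.3 CPM to 31.0 and 78.2 CPM. Its value was 0.59 without shFOXK2 replicate 2, and the call was lost.

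All 30 regulators of chemokine transcripts were tested: 15 were lower, 4 higher and 11 not called, with a median of −0.73. Over all tested genes, 22.7% were lower and 25.7% higher. The largest fall was in ZC3H12A, which encodes regnase-1, a nuclease that degrades cytokine mRNAs and is itself an NF-kappaB target. It had 3209 and 2539 counts in shCtrl against 132 and 132 in shFOXK2 (log2 fold change −4.19, SE 0.28, adjusted p = 4.84e-07). TNFAIP3 was at −3.85 (SE 0.48, adjusted p = 4.4e-05), and at −5.22 without shFOXK2 replicate 1. NFKBIA, the inhibitor that NF-kappaB induces, was at −2.70 (adjusted p = 7.58e-06). The AP-1 subunits FOSL1 and FOS rose, FOSL1 by 2.39 (adjusted p = 7.91e-05), from 130 and 170 CPM to 1054 and 513 CPM, and FOS by 2.30 (adjusted p = 0.000136). The NF-kappaB subunit genes RELB (−2.17), NFKB2 (−1.78), NFKB1 (−1.14) and RELA (−1.06) were called lower, with adjusted p of 0.000121, 0.000192, 0.00177 and 0.00479. RELA lost the call without shFOXK2 replicate 2 (−0.80). The remaining subunit gene, REL, had 354 and 67 counts in shCtrl against 134 and 223 in shFOXK2 and was not called (0.10, adjusted p = 0.876). Its value ran from −0.62 without shCtrl replicate 2 to 1.34, and called, without shCtrl replicate 1.

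Genes next to the chemokines were considered because 6 of the chemokines lie in one cluster. Among 69 protein-coding genes within 500 kb of the members, 42 were tested and 42.9% were called, against 48.4% of all tested genes, with a median log2 fold change of 0.01. Around the CXCL8 to CXCL2 cluster, 5 of 12 were tested, of which 3 were higher and 0 lower. Over all tested genes 25.7% were higher and 22.7% lower. AREG, which encodes the EGF receptor ligand amphiregulin and starts 346 kb from CXCL2, had 1084 and 708 counts in shCtrl against 2611 and 6038 in shFOXK2 (log2 fold change 2.47, SE 0.30, adjusted p = 3.21e-05). Both shFOXK2 libraries lay above both shCtrl libraries. RASSF6 (1.81, adjusted p = 0.00655) and MTHFD2L (1.07, adjusted p = 0.0176), which starts 15.0 kb from CXCL2, were also called, but both lost the call without shFOXK2 replicate 2 and went to 0.00 and −0.31 when the trend of fold change with transcript adenine content was removed. EREG was at 0.53 and not called (adjusted p = 0.106). Its value ran from 0.01 to 0.57 over 8 other settings and from 0.16 to 0.87 with single libraries left out. ANKRD17 was at 0.29, or −0.04 with the adenine trend removed. The platelet chemokine genes inside the cluster were near 0, PPBP with 3 and 2 counts in shCtrl against 0 and 0 in shFOXK2, PF4V1 with 1 and 2 against 0 and 0, and PF4 with 0 in each.

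**Figure D5:**
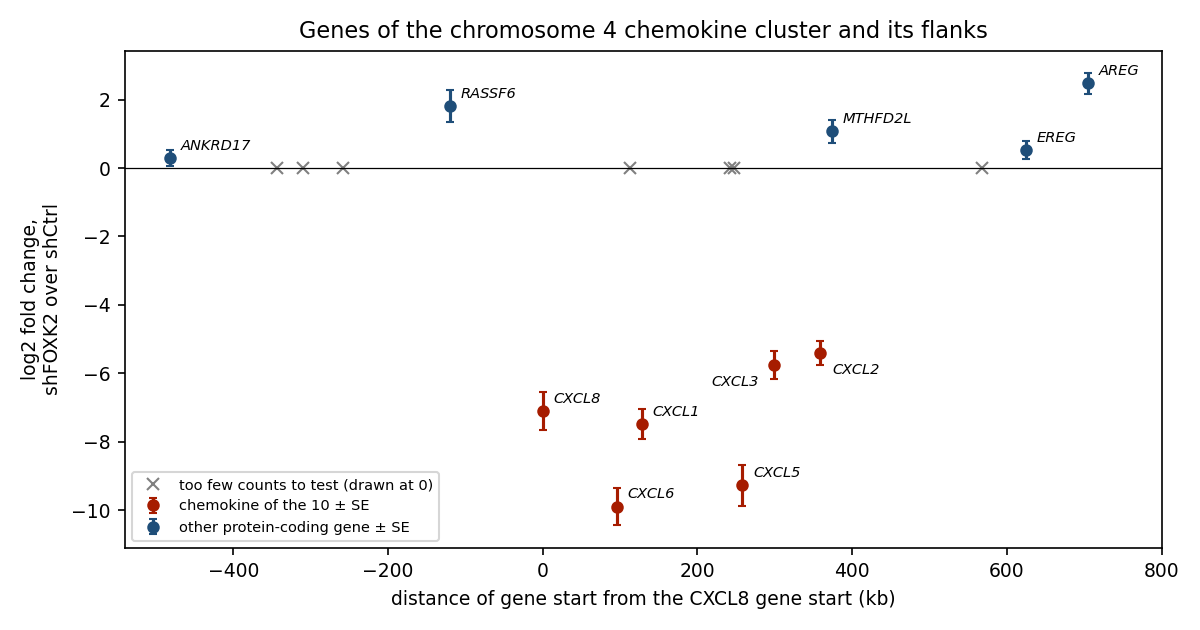
Log2 fold change (shFOXK2 over shCtrl) with its standard error for genes of the chromosome 4 chemokine cluster and its flanks, against the distance of each gene's start from that of CXCL8 in kb. Red points are the 6 chemokines, between −9.90 and −5.42, blue points are other tested protein-coding genes, between 0.29 and 2.47, and crosses at 0 are genes with too few counts to test.

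At the other loci the neighbours went both ways, beside 22.7% lower and 25.7% higher of all tested genes. Around CXCL10 and CXCL11, 9 of 16 were tested, with 4 lower and 2 higher, led by SDAD1 (1.77, adjusted p = 0.000113, and 0.48 and not called with the adenine trend removed), SCARB2 (−1.57, adjusted p = 0.000416) and SHROOM3 (−1.54, adjusted p = 0.000828). Around CXCL16, 24 of 35 were tested, with 6 lower and 2 higher, led by SPNS3 (−1.82, adjusted p = 0.00263). GLTPD2 (−1.51) and ANKFY1 (−1.34, adjusted p = 0.000678) followed. GLTPD2 had at most 27 counts in a library and was not called in 5 other settings. It reached the filter's level in both shCtrl libraries but not in shFOXK2 replicate 2 (0.220 CPM), so no p is given for it. Around CCL20, 4 of 6 were tested and DAW1 alone was called, at 2.30, with 3 and 4 counts in shCtrl against 15 and 15 in shFOXK2. It passed the filter through shFOXK2 alone, and the call was lost without shCtrl replicate 1 and in the DESeq2 Wald test.

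Markers of other cells and of epithelial state were measured in the same libraries. Leukocyte markers, 12 genes, summed to 25.4 and 30.7 CPM in shCtrl and 10.5 and 11.6 CPM in shFOXK2, mostly from CD14 and ITGAM. CD14 was called lower (log2 fold change −1.14, adjusted p = 0.00566). ITGAM had 161 and 130 counts in shCtrl against 3 and 22 in shFOXK2, and its value of −3.35 moved to −5.16 without shFOXK2 replicate 2 and −2.68 without replicate 1. PTPRC, the pan-leukocyte marker CD45, had 0, 0, 3 and 0 counts, and 3 of the 12 genes had 0 in every library. The 10 epithelial and ovarian carcinoma markers summed to 4112 and 5478 CPM in shCtrl and to 4101 and 5314 CPM in shFOXK2. Among them CDH1, which encodes E-cadherin, was at −4.02 (adjusted p = 5.12e-06) and MUC16, which encodes CA125, had 397 and 145 counts in shCtrl against 0 and 8 in shFOXK2. MUC16 passed the filter through shCtrl alone and had to differ, so no p is given. PAX8 was at −0.88 (adjusted p = 0.0263), a call lost with the adenine trend removed, without shCtrl replicate 2 and without shFOXK2 replicate 2. MSLN was at 1.10 (adjusted p = 0.0151), a call lost without shCtrl replicate 2, and EPCAM was at −0.25 (adjusted p = 0.393). The 9 fibroblast and mesothelial markers summed to 62.6 and 62.1 CPM in shCtrl and to 50.5 and 101.7 CPM in shFOXK2. PDGFRB had 127 and 87 counts in shCtrl against 2 and 8 in shFOXK2 and passed the filter through shCtrl alone. The mesothelial markers did not move together. CALB2 rose by 3.82 (adjusted p = 1.69e-05), and by 2.96 without shFOXK2 replicate 2. UPK3B was at −1.45 (adjusted p = 0.0103), a call lost with the adenine trend removed and without shFOXK2 replicate 1 (−0.87). LRRN4 was at −2.80, with 110 and 78 counts in shCtrl against 16 and 6 in shFOXK2, having passed the filter through shCtrl. DCN and COL1A2 had 0 counts but for 3 and 2 in 1 library. The part of these marker changes in the chemokine values was not tested.

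Genes whose profile over the 4 libraries was nearest to the mean profile of the 8 tested chemokines, by root mean square difference of centred log2 CPM, were HLA-DRA (0.156), MMP7 (0.180), NEURL3 (0.298), PIGR (0.310) and AC008760.2 (0.347). HLA-DRA, an MHC class II chain, had 137 and 92 counts in shCtrl against 1 and 0 in shFOXK2. MMP7, the epithelial metalloproteinase matrilysin, had 488 and 392 against 6 and 3. PIGR, the epithelial receptor that carries IgA, had 469 and 347 against 6 and 4. AC008760.2 had 98 and 78 against 1 and 0. For HLA-DRA and AC008760.2 the shFOXK2 log2 CPM, and with it the nearness, depends on the prior count. The likeness was computed over 4 libraries of 2 groups and is a description.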

How the data were processed

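The authors isolated poly(A) RNA, prepared NEBNext Ultra II libraries, sequenced single-end 50-base reads, aligned them with STAR 2.5.2 to hg38 and used HTSeq to count reads for each gene. The annotation, the strand setting and the HTSeq version are not given in the sources used here. Raw counts for each gene symbol were deposited by the authors, 1 table for each of the 4 libraries, without normalization.

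Counts were filtered with filterByExpr, scaled by TMM and compared in edgeR 4.0.16 (R 4.3.3) by its quasi-likelihood F test, 2-sided, with Benjamini-Hochberg adjustment over 16417 genes and a threshold of 0.05. All adjusted p-values are from this fit unless another is named, and the SE was derived from the log2 fold change and its F statistic as the size of the change over the root of F. The groups came from the sample titles. With 2 libraries a group no permutation test can reach 0.05. The script was tested on simulated counts. The ratio for a chemokine is that of counts pooled within each group, scaled by TMM-adjusted library size, with an exact binomial interval. Percentages of the control level are from mean CPM instead, so they are not the inverse of this ratio.

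The 10 chemokines and the other lists were chosen with earlier results of these data known. Genes named from a list are its called genes with the 5 largest changes, 3 for each locus of neighbours, together with the members, FOXK2, the members' receptors and the 5 nearest profiles. Further genes named (uncalled ligands, CCL1, CXCL9, ADAM10, NF-kappaB subunits, markers and cluster neighbours) were chosen after their values were seen. Transcript lengths, 3′ UTRs and neighbours came from GENCODE canonical transcripts, which matched 36053 of 56655 symbols. Promoter sequences were those of RefSeq (GRCh38.p14), 250 bases before to 50 after the start.

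Alternatives were DESeq2 1.42.0 (size factors, Wald test), library size alone, no filter, a replicate block, an offset by lowess (span 0.2) that removes the trend of fold change with transcript adenine content, both together, and each library left out. A crossed replicate block was added after seeing the data.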

Additional observations from a re-analysis of the deposited data

How the results depend on the processing

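The calls of the 8 tested chemokines were fixed by how the genes were chosen and filtered and are not read here. Their median log2 fold change, −6.43, was −6.50 with the replicate block and ran from −7.57 (without shFOXK2 replicate 1) to −5.77 with single libraries left out. The replicate numbers did not pair the samples: deviations of same-numbered libraries correlated at −0.10, and the replicate block called 7270 genes against 7940, the crossed block 8350. Removing the trend with adenine content shifted the median of all genes by 0.25 and called 8414. It raised the count of higher other ligands from 0 to 1, as did its combination with the replicate block and the fit with no filter, lowered the count of lower receptors from 2 to 1 (CCR10 lost), as did the combination and the DESeq2 Wald test, and lowered the count of higher processing genes from 1 to 0 (DPP4 lost). MTHFD2L reversed to −0.31 with it and −0.32 with the combination, and RASSF6 to −0.10 with the combination. Of values not called, ANKRD17 reversed to −0.041 with the adenine trend removed and −0.042 with the combination, and REL to −0.49, −0.36 and, with no filter, −0.0055, and with single libraries left out REL ran from −0.62 to 1.34. The cause was not tested. With single libraries left out, higher other ligands ran from 0 to 1, lower receptors from 1 to 3, higher processing genes from 0 to 1, higher regulators from 2 (without shFOXK2 replicate 2) to 5, and lower neighbours from 5 (without shFOXK2 replicate 2) to 9. Among the single genes refitted in 8 settings, 8 values changed sign, whatever their call. Of the values that kept their sign, 14 lost their call, 10 gained one and 464 did neither. With a library left out, 2 values changed sign. Depth limits CXCL5, CXCL6, CXCL10, CXCL11 and CCL20 in shFOXK2, each at 3 counts or fewer a library.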
